A study of Homo sapiens with 18 samples.

Results

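The libraries of control IMR90 ER:RAS cells given DDD86481, an inhibitor of N-myristoyltransferases (NMTi), were compared with those of control cells given DMSO. The members were chosen from the labels alone, as the 3 control libraries with DDD86481 and the 3 control libraries with DMSO, which makes 6 of the 18 libraries of the series. The study asked how senescent and control cells differ in their response to NMTi and to loss of the COPI coat. IMR90 cells are human lung fibroblasts, and all cells carried ER:RAS, introduced by viral infection. In ER:RAS, oncogenic RAS is joined to a piece of the oestrogen receptor and stays inactive until 4-hydroxytamoxifen (4OHT) is added. Control cells had DMSO in place of 4OHT and were cultured for 7 days. They were then given 1.5 µM DDD86481, or DMSO again, for 3 days, until collection on day 10. The labels give the genotype as WT and the cell type as lung fibroblast, and do not say whether the cells were 1 clone. For comparison, 3 further control libraries had 300 nM IMP1088, another NMTi, and senescent cells had 100 nM 4OHT followed by DMSO or DDD86481 on the same schedule.

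NMT1 and NMT2 join the fatty acid myristate to an N-terminal glycine of newly made proteins, which helps those proteins bind membranes. Among their substrates are the ARF GTPases, which recruit the COPI coat to Golgi membranes, kinases of the SRC family and the alpha subunits of inhibitory G proteins. COPI carries escaped ER proteins back from the Golgi, and cells that cannot fold or move proteins through the ER start the unfolded protein response (UPR). In dividing fibroblasts, RNAs for DNA replication and mitosis follow the share of cells in the cell cycle.

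Poly(A) RNA was sequenced, and the 6 libraries held between 16143716 and 23189950 counts. Expression is given in CPM, counts scaled to a common library size, per library or as mean ± SD (n = 3 libraries). CPM is not corrected for gene length, so it compares libraries and not genes. A count of 3, the most that a true level behind a count of 0 allows, corresponded to between 0.121 and 0.168 CPM and is called the floor below. Log2 fold changes are given ± SE, and a gene was called when its adjusted p in the quasi-likelihood test of edgeR was under 0.05. The labels number the replicates but do not say that they came from separate cultures, so these p-values measure the spread between the libraries, which may be technical.

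The DMSO group was less uniform than the DDD86481 group. In a principal component analysis of the 6 libraries, the first component carried 63.3% of the variance, and DMSO replicate 3 scored -53.2 against -17.8 and -28.2 for DMSO replicates 1 and 2 and 29.7 to 37.7 for the DDD86481 libraries. Deviations within the DMSO group followed transcript length. In DMSO replicate 3 the median log2 deviation from the group mean went from 0.296 in the shortest quintile of transcripts (110 to 1757 bases) to -0.277 in the longest quintile (5762 to 37852 bases). In DMSO replicate 1 it went the opposite way, from -0.224 to 0.218, whereas the medians of the DDD86481 libraries stayed between -0.051 and 0.034. The median log2 fold change with DDD86481 was -0.27 in the shortest quintile and 0.21 in the longest, and -0.12 and 0.10 without DMSO replicate 3. Counts of gene groups below are therefore also given without DMSO replicate 3 and with a correction for transcript length where either moved them by more than 1 gene and over 1.5 times, and the part of this trend in the other results was not tested.

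Markers of the labelled cell type were present, and markers of other cell types were low. All 16 fibroblast markers were above the floor in all 6 libraries, and their summed level was 27231 to 34013 CPM with DMSO and 33698 to 39727 CPM with DDD86481. Of these 16 markers, 4 were called higher (25%) and 4 lower (25%) with DDD86481, beside 17.8% and 18.7% of all genes. Among them THY1, a surface glycoprotein of fibroblasts, fell by 1.46 on the log2 scale, from 660.4 ± 40.1 to 240.3 ± 5.42 CPM. TCF21, a transcription factor of lung and heart fibroblasts, rose from 73 ± 3.27 to 164 ± 13.8 CPM, or by 1.17 ± 0.09 on the log2 scale. The 12 epithelial markers summed to 108 to 150.4 CPM with DMSO and 58.1 to 65.6 CPM with DDD86481, with 5 of them at 0 in all 6 libraries. Among the 8 endothelial markers 1 was at 0 in all 6 libraries, and they summed to 32.4 to 56.3 against 37.4 to 52.2 CPM. The 10 immune markers summed to 15.4 to 20.3 against 19.5 to 24.2 CPM, with 4 of them at 0 throughout. The 8 smooth muscle and pericyte markers, which fibroblasts also express, summed to 544 to 556.9 CPM with DMSO and 206.7 to 221.1 CPM with DDD86481. In bulk RNA, fewer cells of a type and less RNA per cell cannot be told apart.

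DDD86481 changed the RNA level of a large share of the genes of control cells. Of 14341 genes tested, 5242 (36.6%) were called, 2554 higher (17.8%) and 2688 lower (18.7%) with DDD86481. Large changes were more often falls: 348 called genes (2.43%) were over 2-fold higher and 583 (4.07%) over 2-fold lower. The values of the 2 groups did not overlap in 6219 genes (43.4%). The median log2 fold change over all genes was 0, and these shares are the background for the gene groups below. Without DMSO replicate 3, 2023 of 14493 genes were called higher and 2097 lower. With the correction for transcript length the counts were 2460 and 2732 of 13752. In a fit of the 6 libraries alone they were 1271 and 1571 of 13558.

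The 12 largest rises, among genes whose groups did not overlap and which were called whichever library was left out, held stress, lysosomal and immediate early genes. FOSB, an AP-1 transcription factor, had 0.564, 0.966 and 0.796 CPM with DMSO and 21.8, 10.1 and 4.3 CPM with DDD86481, a log2 fold change of 3.94 ± 0.48 (adjusted p = 3.77e-06). All DDD86481 values were above the DMSO values, which the choice of these genes required. With an SD of 8.89 on a mean of 12.1 CPM the DDD86481 values varied widely. MFSD2A, a transporter of lysophosphatidylcholine, rose from 3.18, 3.82 and 3.68 to 41.6, 21.1 and 30.1 CPM, or by 3.12 ± 0.22 on the log2 scale (adjusted p = 5.14e-09). INHBE, an inhibin subunit known as a target of the ATF4 branch of stress signalling, rose by 3.08 ± 0.41 from a DMSO mean of 0.996 ± 0.133 CPM. TRIB3, a pseudokinase induced by ATF4 and DDIT3, had 21.4, 28.2 and 23.2 CPM with DMSO and 123, 64.3 and 103 CPM with DDD86481, and rose by 1.99 ± 0.19 (adjusted p = 1.37e-07). Its lowest DDD86481 value was over the highest DMSO value, which the choice of these genes required. GPNMB, a glycoprotein of lysosomes and melanosomes, had 4.64, 4.06 and 3.13 against 17, 25.7 and 27.9 CPM and rose by 2.56 ± 0.24. ACP5, a lysosomal acid phosphatase, rose by 2.35 ± 0.32, and CHI3L1, a secreted chitinase-like protein, by 2.55 ± 0.20. The others were FOS (2.69), PTGS2 (2.22), the cyclooxygenase of inflammation, SLC16A6 (2.20), a monocarboxylate transporter family member, NR4A3 (2.18), a nuclear receptor of the immediate early class, and C16orf71 (2.06).

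Of the 12 largest falls, chosen under the same conditions and so without overlap, 10 were genes of the cell cycle. GAP43, known as a growth cone protein of neurons, fell furthest, with 6.41, 7.16 and 15.4 CPM with DMSO and 0.417, 0.84 and 0.561 CPM with DDD86481 and a log2 fold change of -3.98 ± 0.41 (adjusted p = 4.69e-07). DMSO replicate 3 held the highest value. SERPINB7, an intracellular serine protease inhibitor, had 5.88, 6.12 and 5.72 against 0.678, 1.01 and 0.514 CPM and fell by 3.02 ± 0.20. BIRC5, or survivin, a subunit of the chromosomal passenger complex, had 18.3, 18.7 and 26.7 CPM with DMSO and 2.61, 1.51 and 1.96 CPM with DDD86481, a change of -3.38 ± 0.25. Its group ranges lay far apart. The remaining falls were those of SKA3 (-3.48) of the kinetochore, TROAP (-3.45) of the spindle, the mitotic kinases NEK2 (-3.42), PBK (-3.32) and AURKB (-3.17), MYBL2 (-3.25), a transcription factor of dividing cells, UBE2C (-3.21) and CDC20 (-3.10) of the anaphase-promoting complex, and DEPDC1 (-3.08).

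RNA for the targets of the compound was measured next. NMT1 had 157, 141 and 153 CPM with DMSO and 191, 156 and 174 CPM with DDD86481, with a log2 difference of 0.21 ± 0.08 that was not called (adjusted p = 0.0521). The groups overlapped, as DMSO replicate 1 was above DDD86481 replicate 2. NMT2 had 34.1, 38.9 and 45.8 CPM with DMSO and 18.4, 22.7 and 16.5 CPM with DDD86481, and fell by 1.04 ± 0.14 (adjusted p = 8.15e-06), with no overlap. NMT1 lies at chr17:45061317-45109016 and NMT2 at chr10:15105700-15168693 (GRCh38.p14). Of the 13 NMT enzymes and helpers tested, 3 were called higher and 3 lower. The acyl-CoA synthetases ACSL4 and ACSL1, which activate fatty acids, rose by 0.61 ± 0.10 and 0.55 ± 0.12. METAP1, an aminopeptidase that removes the first methionine before myristate is added, fell from 47.8 ± 2.36 to 36.4 ± 0.995 CPM, and METAP2 fell from 181 ± 57.6 to 127 ± 5.14 CPM, with overlapping groups and a call that was lost without DMSO replicate 3.

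Genes that encode N-myristoylated proteins showed no shared direction. Of 56 tested, 7 were called higher (12.5%) and 16 lower (28.6%), beside 17.8% and 18.7% of all genes, with a median log2 fold change of -0.08. Without DMSO replicate 3, 5 were higher and 9 lower, beside 2023 and 2097 of all 14493 genes tested. ARF1, the GTPase that loads COPI on the Golgi, had 457, 436 and 468 CPM with DMSO and 516, 441 and 481 CPM with DDD86481, and the groups overlapped (log2 difference 0.08 ± 0.09, adjusted p = 0.5). ARF4, a relative of it in the same transport step, had 355, 398 and 498 against 883, 665 and 749.5 CPM and rose by 0.88 ± 0.13 (adjusted p = 2.81e-05), with every DDD86481 value above every DMSO value. ARF5 and ARF6, which act at the Golgi and at the plasma membrane, fell by 0.49 ± 0.13 and 0.41 ± 0.09, and 26.7% of the exonic bases of ARF5 are shared with another gene. ARL1, a GTPase of the trans-Golgi, rose by 0.28 ± 0.09 with overlapping groups, a call that was lost without DMSO replicate 1 or 2, without DDD86481 replicate 1 or 3 and with upper quartile scaling. ARF3, with 14% of its exonic bases shared, was not called at 0.16 ± 0.10. BASP1, a myristoylated protein of the plasma membrane, had 250, 273 and 308 CPM with DMSO and 168, 191 and 173 CPM with DDD86481, and fell by 0.64 ± 0.09. MARCKS, an actin-binding substrate of protein kinase C, was at 316 ± 16.6 and 285 ± 7.28 CPM and was not called. GNAI2, an inhibitory G protein subunit, fell by 0.45 ± 0.08, and the SRC family kinase LYN by 0.53 ± 0.14.

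Genes of mitosis fell together. Of 43 mitosis and kinetochore genes tested, 42 were called lower and 0 higher, with a median log2 fold change of -2.46, and the count was the same without DMSO replicate 3 and with the length correction. Their summed level was 682, 619.97 and 647 CPM in DMSO replicates 1 to 3 and 184.6, 146.8 and 151 CPM in the DDD86481 replicates. CCNB1, the cyclin that drives entry into mitosis, had 29.5, 27.2 and 34.4 CPM with DMSO and 8.24, 7.51 and 7.62 CPM with DDD86481. It fell by 1.96 ± 0.12 on the log2 scale (adjusted p = 1.01e-09), with both groups tight. TOP2A, the topoisomerase that untangles sister chromatids, had 63.5, 60.9 and 62.2 against 15, 8.8 and 8.65 CPM, a change of -2.52 ± 0.17 (adjusted p = 2.22e-09), and DDD86481 replicate 1 was the highest treated library. CDC20, which activates the anaphase-promoting complex, had 15.2, 13 and 16 CPM with DMSO and 2.61, 1.29 and 1.26 CPM with DDD86481. CDK1, the kinase partner of CCNB1, had 12.7, 12.9 and 19.6 against 2.71, 2.13 and 1.64 CPM and changed by -2.80 ± 0.24. The same treated library was highest for CDC20 and CDK1, and no groups overlapped. PLK1, a mitotic kinase with 12.8% of its exonic bases shared with another gene, changed by -2.36 ± 0.22; CCNA2, the cyclin of S phase and G2, changed by -2.57 ± 0.19; and PRC1, which bundles midzone microtubules, by -2.20 ± 0.12. KIF11, the spindle motor, and AURKA, a centrosomal kinase, had smaller falls of 1.18 ± 0.17 and 1.20 ± 0.14. MKI67, the proliferation antigen Ki-67, had 32.2, 19.8 and 12.9 CPM with DMSO and 5.9, 3.03 and 2.9 CPM with DDD86481; its DMSO libraries spread over more than a 2-fold range, and all were above the treated ones.

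The start sites of many of these genes share a short element. The cell cycle genes homology region (CHR), TTTGAA, is known to bind the MuvB complex, which silences mitotic genes in resting cells. RefSeq windows from 250 bases before to 50 bases after the start were found for 35 of the 42 lower mitosis genes, and 23 of these (65.7%) held TTTGAA on either strand, beside 4961 of all 27305 genes with a window (18.2%). A CCAAT box was in 27 of the 35 (77.1%), against 39.7% of all genes. Stretches of 5 of these promoters are shown for kinases, cyclins and effectors described here, with each CHR in capitals on the strand of the gene, where the reverse reads TTCAAA. The windows are those of CDC20 (chr1:43358788-43358936, plus strand), PLK1 (chr16:23678845-23678880, plus), CDK1 (chr10:60778155-60778190, plus), CCNB2 (chr15:59105102-59105137, plus) and TOP2A (chr17:40418027-40418105, minus) on GRCh38.p14.
CDC20: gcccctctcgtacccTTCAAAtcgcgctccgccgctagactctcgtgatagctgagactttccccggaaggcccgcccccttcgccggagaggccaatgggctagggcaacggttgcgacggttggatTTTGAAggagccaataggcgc
PLK1: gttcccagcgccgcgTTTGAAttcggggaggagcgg
CDK1: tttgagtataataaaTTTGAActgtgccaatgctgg
CCNB2: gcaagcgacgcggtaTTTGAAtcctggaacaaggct
TOP2A: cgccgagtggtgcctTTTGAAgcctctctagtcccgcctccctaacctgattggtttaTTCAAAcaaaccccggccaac
CCNB2, another B-type cyclin, had 11, 8.41 and 12.4 CPM with DMSO and 2.24, 2.63 and 1.87 CPM with DDD86481, a change of -2.24 ± 0.21. A match of letters is a description of the sequence and not a measured binding site.

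Genes of DNA replication fell as well, by smaller amounts. Of 39 tested, 25 were called lower (64.1%) and 0 higher, with a median log2 fold change of -0.58; without DMSO replicate 3 it was 19 lower with a median of -0.42. MCM5, a subunit of the replicative helicase, had 29.3, 25.2 and 29.4 CPM with DMSO and 11, 12.8 and 13.1 CPM with DDD86481, and fell by 1.19 ± 0.11 (adjusted p = 1.65e-07). MCM6, another helicase subunit, had 61.2, 60.7 and 61.9 against 50.8, 46.4 and 47.3 CPM, a change of only -0.35 ± 0.08, with no overlap. PCNA, the sliding clamp of DNA polymerases, had 67.2, 75.7 and 113 CPM with DMSO and 55.6, 47.5 and 55.4 CPM with DDD86481 (log2 -0.69 ± 0.15, adjusted p = 0.00133), and DMSO replicate 3 was the library furthest from the others. MCM10 and CDC45, which switch the helicase on, changed by -2.42 ± 0.26 and -1.77 ± 0.25. MCM3 fell from 57.9, 46.3 and 50.6 to 41, 33.5 and 42.7 CPM, or by 0.40 ± 0.14, a call that was lost without DMSO replicate 1 and without DDD86481 replicate 1 or 2. MCM2, with 23.6% of its exonic bases shared, POLE and CDT1 were not called, at -0.28 ± 0.12, -0.15 ± 0.18 and -0.24 ± 0.17.

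E2F sites, the elements by which E2F factors and their RB partners control S phase genes, were frequent in this group. Of 21 lower replication genes with a window, 7 (33.3%) held TTTCCCGC, against 1.98% of all genes, and 4 (19%) held TTTGGCGC, against 0.795%, while 0 held the CHR. Of all 32 tested replication genes with a window, called or not, 9 (28.1%) held TTTCCCGC and 7 (21.9%) TTTGGCGC. CDT1 and POLE, which were not called, were among these, so the sites were not particular to the genes called lower. The stretches below are shown for the helicase and clamp genes just described, with the E2F letters in capitals, on either strand. They lie at chr6:52284894-52284931 (MCM3, minus strand), chr20:5126659-5126696 (PCNA, minus) and chr2:135876511-135876610 (MCM6, minus).
MCM3: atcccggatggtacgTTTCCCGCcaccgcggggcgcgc
PCNA: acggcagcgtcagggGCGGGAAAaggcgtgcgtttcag
MCM6: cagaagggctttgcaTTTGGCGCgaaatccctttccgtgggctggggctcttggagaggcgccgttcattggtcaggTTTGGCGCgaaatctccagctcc

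Enzymes that supply deoxynucleotides held some of the steepest falls beside mitosis. RRM2, the S phase subunit of ribonucleotide reductase, had 32.6, 33.5 and 36 CPM with DMSO and 5.01, 4.71 and 3.97 CPM with DDD86481, a change of -2.90 ± 0.16 (adjusted p = 2.7e-10). TK1, thymidine kinase, had 17.6, 17.5 and 23.9 against 3.39, 3.08 and 3.27 CPM and changed by -2.59 ± 0.20. Neither gene had overlapping groups. TYMS, thymidylate synthase, changed by -1.76 ± 0.15, with 47.9% of its exonic bases shared with another gene, and RRM1, the large reductase subunit, by -0.35 ± 0.08. In all, 10 of 23 nucleotide synthesis genes were lower and 2 higher.

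Cyclins and E2F factors fell more often than they rose, with 16 of 32 cyclin, CDK and E2F genes lower and 5 higher (median -0.38). CCND1, the cyclin of growth factor signalling, had 1438, 1339.9 and 1169 CPM with DMSO and 898, 843 and 895 CPM with DDD86481 and fell by 0.58 ± 0.09. E2F1 changed by -1.26 ± 0.18, CCNE2 by -2.66 ± 0.33 (37.1% of its exonic bases shared), FOXM1, a factor that activates mitotic genes, by -1.96 ± 0.16, and MYC by -0.68 ± 0.15.

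Of the CDK inhibitors, which hold cells in G1, 0 of 8 were called higher. CDKN1A, or p21, had 410.2, 341 and 378 CPM with DMSO and 354, 340.2 and 326 CPM with DDD86481, with overlapping groups (log2 difference -0.15 ± 0.11, adjusted p = 0.299). CDKN2A, which encodes p16 and ARF, had 62.4, 74.3 and 103 against 48.3, 51.8 and 54 CPM and fell by 0.64 ± 0.14 (adjusted p = 0.00171); DMSO replicate 3 was highest, and 15.3% of its exonic bases are shared, among others with CDKN2B-AS1. CDKN1B and CDKN2B were not called, at 0.10 ± 0.14 and 0.26 ± 0.12. The 4 lower genes also included CDKN2C (-0.78 ± 0.17), CDKN2D (-0.58 ± 0.18) and CDKN3 (-2.21 ± 0.29), and CDKN3 encodes a phosphatase of CDKs that is itself expressed in dividing cells. The call of CDKN2D was lost without DMSO replicate 3, without DDD86481 replicate 1 or 3 and with the length correction.

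Genes for lamins and chromatin proteins also fell, with 12 of 17 lower, 0 higher and a median of -0.47. LMNB1, lamin B1, had 27.7, 26.1 and 27.7 CPM with DMSO and 13, 8.29 and 12.1 CPM with DDD86481, and fell by 1.28 ± 0.24 (adjusted p = 0.000333). HMGB2 changed by -1.02 ± 0.16, EZH2, the methyltransferase of polycomb, by -0.96 ± 0.16, HMGA1 by -1.18 ± 0.10 and LMNA by -0.71 ± 0.11. No groups overlapped in these 5 genes.

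RNAs of the UPR rose in control cells, though not evenly. Of 31 ER chaperones and folding enzymes, 18 were called higher (58.1%) and 1 lower, with a median log2 fold change of 0.37. Their summed level was 9651, 9841 and 10042 CPM in the DMSO replicates and 14997, 10975 and 12738 CPM in the DDD86481 replicates. HSPA5, or BiP, the main ER chaperone, had 780.4, 860.1 and 825 CPM with DMSO and 2525, 1403 and 1869 CPM with DDD86481, and rose by 1.23 ± 0.15 (adjusted p = 2.88e-06). DDD86481 replicate 1 was the highest and replicate 2 the lowest treated library, as in most ER genes below. DNAJB9, a cochaperone of HSPA5, had 28.2, 28.4 and 30.5 against 109.9, 58.5 and 68.7 CPM and rose by 1.45 ± 0.16, and HYOU1, an ER relative of HSP70, rose by 1.30 ± 0.17. DNAJC3, which restrains the kinases of the stress response, rose by 1.10 ± 0.12. HSP90B1, the ER form of HSP90, rose by 0.37 ± 0.12 (adjusted p = 0.0185), a call that was lost without DDD86481 replicate 1. Abundant folding proteins moved less, and CALR, PDIA4 and PDIA6 were not called at 0.13 ± 0.10, 0.28 ± 0.11 and -0.10 ± 0.10, with 25.2% of the exonic bases of PDIA6 shared with another gene.

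The ER stress element (ERSE), a CCAAT box with CCACG a fixed distance after it, through which ATF6 and XBP1 act with NF-Y, was found on either strand in the windows of 25 of all 27305 genes (0.0916%). It was in 4 of the 16 higher chaperone genes with a window (25%), which were CANX, ERO1B, HSP90B1 and HSPA5, and in 3 tested members that were not called, CALR, CRELD2 and PDIA6. Those of HSPA5 (chr9:125241376-125241424, minus strand) and HSP90B1 (chr12:103930201-103930354, plus strand) are shown, as both genes carried it and rose by different amounts, with the element in capitals.
HSPA5: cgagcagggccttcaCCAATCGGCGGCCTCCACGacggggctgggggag
HSP90B1: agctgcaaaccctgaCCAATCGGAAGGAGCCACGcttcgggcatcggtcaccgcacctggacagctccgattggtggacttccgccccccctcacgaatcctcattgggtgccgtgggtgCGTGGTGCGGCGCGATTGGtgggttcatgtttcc

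ER-associated degradation, which removes misfolded proteins, followed the chaperones in part, with 13 of 28 genes higher and 2 lower (median 0.19). HERPUD1, a membrane protein of this machinery, had 83.6, 74.1 and 89 CPM with DMSO and 343, 202 and 233 CPM with DDD86481, and rose by 1.66 ± 0.14 (adjusted p = 3.28e-08). SYVN1, its ubiquitin ligase, and SEL1L, the adaptor of that ligase, rose by 1.28 ± 0.17 and 0.93 ± 0.15. EDEM1, a lectin that marks glycoproteins for removal, rose from 65.3 ± 6.96 to 133 ± 15.3 CPM. None of the 24 tested genes of this group with a window held the ERSE.

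All 3 UPR sensors rose. ERN1, or IRE1, had 6.49, 5.99 and 4.13 CPM with DMSO and 16.3, 10.1 and 12.9 CPM with DDD86481 and rose by 1.23 ± 0.17. EIF2AK3, or PERK, had 35.8, 28.2 and 23.7 against 94.4, 62 and 67.6 CPM and rose by 1.35 ± 0.15 (adjusted p = 1.41e-06). ATF6 rose by 0.38 ± 0.11, a call that was lost with the length correction. Of 30 sensors and factors of the UPR, 16 were higher and 1 lower (median 0.38). DDIT3, or CHOP, the stress factor linked to cell death, had 14.3, 10.1 and 18.1 CPM with DMSO and 57.2, 30.6 and 40.8 CPM with DDD86481, and rose by 1.61 ± 0.20 with no overlap, although 39.6% of its exonic bases are shared. PPP1R15A, or GADD34, which restores translation, rose by 0.56 ± 0.12. ATF4, the factor upstream of DDIT3, had 235, 267 and 348 against 405, 323 and 331 CPM, with overlapping groups and no call (log2 difference 0.32 ± 0.14, adjusted p = 0.073). XBP1, ATF3, CHAC1 and NUPR1 were not called either, at 0.27 ± 0.12, 0.35 ± 0.27, 0.08 ± 0.29 and -0.13 ± 0.12. PMAIP1, or NOXA, a killer protein of the BCL2 family that is also placed in this list, fell from 56 ± 15.1 to 26.2 ± 4.64 CPM.

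Genes of vesicle transport rose modestly. Of 28 genes for the COPI coat and its regulators, 13 were higher (46.4%) and 4 lower (median 0.23), against 12 and 1 without DMSO replicate 3 and 17 and 2 with the length correction. COPA, a coat subunit, had 510, 423 and 325 CPM with DMSO and 679.6, 556 and 649 CPM with DDD86481, and rose by 0.58 ± 0.12 (adjusted p = 0.00119). COPG1 rose by 0.42 ± 0.09 and COPB2 by 0.25 ± 0.08, with 34.1% of the exonic bases of COPB2 shared, whereas COPB1 was not called at 0.12 ± 0.08. COPZ2, a short coat subunit, fell from 45.4, 52 and 72.2 to 33.9, 37.5 and 35.5 CPM, and DMSO replicate 3 was its highest library. GBF1, the exchange factor that activates ARF1 at the Golgi, had 135, 95.6 and 60.1 against 184, 143 and 176 CPM and rose by 0.79 ± 0.19. The call of GBF1 was lost in a fit of the 6 libraries alone. KDELR2, the receptor that returns ER proteins, rose by 0.29 ± 0.09 with overlapping groups. With upper quartile scaling, without DMSO replicate 2 or without DDD86481 replicate 1 the calls of COPB2 and KDELR2 were lost, and so were that of COPB2 without DDD86481 replicate 3 and that of KDELR2 without DMSO replicate 1. For the COPII coat, which carries cargo out of the ER, 11 of 21 genes were higher and 1 lower (median 0.36). MIA3, or TANGO1, which loads collagen, rose by 1.13 ± 0.15, SEC16A, a scaffold of exit sites, by 1.09 ± 0.17 and SAR1B, the GTPase of the coat, by 0.49 ± 0.09, while LMAN2, a cargo lectin, fell by 0.40 ± 0.11. The call of SAR1B was lost with the length correction and that of LMAN2 without DMSO replicate 3.

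Genes of Golgi structure rose, with 15 of 20 higher (75%) and 1 lower, with a median of 0.44 and the same counts without DMSO replicate 3. GOLGA2, the golgin GM130, had 158, 151 and 167 CPM with DMSO and 246, 225 and 238 CPM with DDD86481, and rose by 0.58 ± 0.08 (adjusted p = 8.77e-06). BLZF1, a Golgi matrix protein, had 30.0, 28.6 and 33.6 against 77.5, 53.3 and 66 CPM and rose by 1.09 ± 0.13. Every treated library was above every DMSO library for both. GOLGB1, or giantin, rose by 0.76 ± 0.17, and STX6, a SNARE of the trans-Golgi, was the lower member, at -0.32 ± 0.08.

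Amino acid transporters were mostly higher, with 9 of 15 called higher and 1 lower (median 0.51). SLC7A11, the cystine transporter, had 34.3, 44.5 and 30.5 CPM with DMSO and 118, 61.6 and 84.7 CPM with DDD86481, and rose by 1.27 ± 0.21. SLC1A4 and SLC1A5, carriers of neutral amino acids, rose by 1.40 ± 0.21 and 0.50 ± 0.11, and SLC3A2, the shared chain of several transporters, by 0.52 ± 0.13. SLC38A2, by contrast, fell by 0.34 ± 0.13, a call that was kept without DMSO replicate 3 and lost when any other of the 6 libraries was left out. The sequence TGATG, any base, AA, a form of the site that ATF4 binds with C/EBP partners, was in 5 of the 8 higher transporter genes with a window (62.5%: SLC1A4, SLC1A5, SLC38A1, SLC3A2 and SLC7A1), beside 4.46% of all genes, and the calls of SLC38A1 and SLC7A1 were lost without DDD86481 replicate 1. The same sequence was in 6 of all 14 tested transporter genes with a window (42.9%). Enzymes of amino acid synthesis were split, with 6 of 16 higher and 6 lower: CTH, which makes cysteine, rose by 1.33 ± 0.25, SHMT1 and PHGDH of serine and glycine metabolism changed by -1.26 ± 0.27 and -0.41 ± 0.13, and PSAT1 was not called at -0.06 ± 0.21. The call of PHGDH was lost without DMSO replicate 2, without DDD86481 replicate 2 or 3 and with the length correction. Of 32 autophagy genes, 11 were higher (34.4%) and 3 lower (9.38%), or 11 and 1 without DMSO replicate 3, with a median of 0.06.

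**Figure D1:**
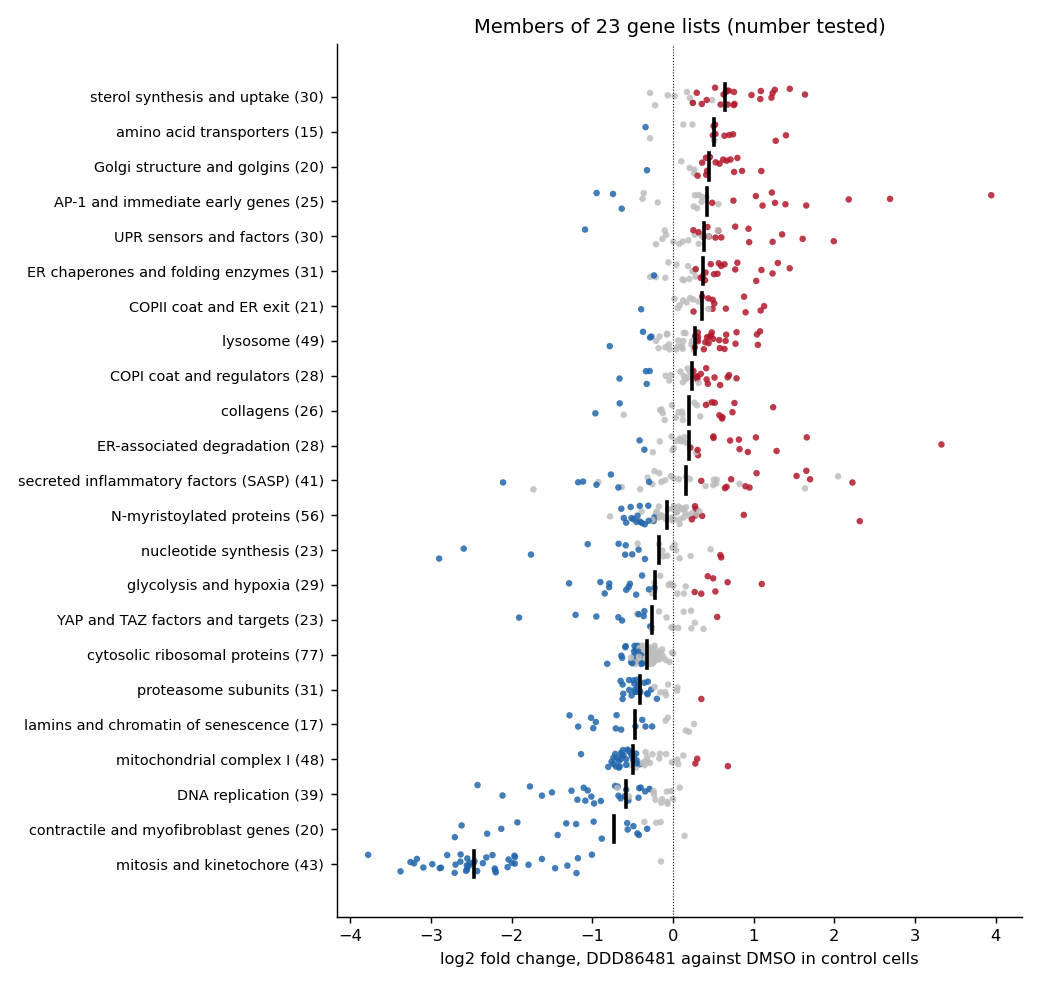
Log2 fold change with DDD86481 in control cells for each tested member of 23 gene lists, with the number tested in brackets, red and blue points for members called higher and lower, grey points for the rest and a black bar at the list median. The medians run from -2.46 for mitosis to 0.64 for sterol synthesis and uptake.

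Sterol genes rose together. Of 30 genes of sterol synthesis and uptake, 22 were higher (73.3%) and 0 lower, with a median log2 fold change of 0.64, and 21 were higher without DMSO replicate 3. The summed level was 1530, 1341 and 1385 CPM with DMSO and 2428, 2098 and 2137 CPM with DDD86481. SQLE, which forms squalene epoxide, had 73.2, 58.8 and 56.7 CPM with DMSO and 159, 119 and 122 CPM with DDD86481, and rose by 1.08 ± 0.11 (adjusted p = 6.59e-07). INSIG1, which retains the sterol sensor in the ER, had 25.7, 18.5 and 17.9 against 80.6, 61.7 and 50.8 CPM and rose by 1.64 ± 0.21. In both genes replicate 1 was the highest library of its group, and the groups did not overlap. HMGCS1, with 37.7% of its exonic bases shared, rose by 1.23 ± 0.15. SREBF2, the transcription factor of this pathway, rose from 166, 121 and 107 to 271, 249 and 253 CPM, and NPC1, the lysosomal cholesterol exporter, rose by 1.45 ± 0.21.

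In fatty acid synthesis, 6 of 15 genes were higher and 1 lower (median 0.36, and 0.13 without DMSO replicate 3). FADS1, a desaturase, had 78.9, 54.2 and 46.4 CPM with DMSO and 231, 181 and 179 CPM with DDD86481, and rose by 1.72 ± 0.19 (adjusted p = 1.36e-06). SCD and FADS2, other desaturases, rose by 1.32 ± 0.21 and 1.15 ± 0.15, ELOVL5, an elongase, by 1.30 ± 0.10 and FASN, fatty acid synthase, by 1.12 ± 0.23. The treated values of FADS1 were all more than double the highest DMSO value. ME1, malic enzyme, was the lower member at -0.54 ± 0.09.

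Lysosomal genes were also mostly higher, with 25 of 49 called higher (51%), 4 lower and a median of 0.27. Their summed level was 8935, 8981 and 9477 CPM with DMSO and 9857, 10981 and 10847 CPM with DDD86481. CTSD, the protease cathepsin D, had 337, 329 and 335 CPM with DMSO and 458, 517 and 521 CPM with DDD86481, and rose by 0.58 ± 0.08 (adjusted p = 1.54e-05), with 48.2% of its exonic bases shared. NEU1, a sialidase, had 48.2, 41.3 and 45.3 against 88.8, 90.4 and 100.2 CPM and rose by 1.05 ± 0.09. TPP1, a peptidase, and CTSS, cathepsin S, rose by 1.04 ± 0.18 and 1.08 ± 0.14. CTSB, cathepsin B, was not called at -0.17 ± 0.08, though its groups did not overlap. GLB1, whose enzyme is the senescence-associated beta-galactosidase, rose by 0.30 ± 0.09, a call that was lost without DMSO replicate 3 and without DDD86481 replicate 3, and 14% of its exonic bases are shared. TFEB, a transcription factor of lysosomal genes, fell from 6.69, 7.6 and 8.81 to 4.17, 6.67 and 2.66 CPM, a call that was lost without DDD86481 replicate 1 or 3. SQSTM1, or p62, the receptor that brings cargo to autophagosomes, had 712, 664 and 708 CPM with DMSO and 1305, 1298 and 1289 CPM with DDD86481, and rose by 0.90 ± 0.09 (adjusted p = 5.08e-07), with very tight treated values and 22.4% of its exonic bases shared. Other autophagy genes that rose were WIPI1 at 0.63 ± 0.09, with 28.1% of its exonic bases shared, and ULK1, the starting kinase, at 0.57 ± 0.10.

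The CLEAR element TCACGTGA, bound by TFEB and its relatives, was in 4 of the 14 higher lysosomal genes with a window (28.6%: CTSA, GAA, LAMP1 and MCOLN1), against 1.18% of all genes. It was in 6 of all 30 tested lysosomal genes with a window (20%). It is a palindrome and reads the same on both strands. The promoters of LAMP1, the main lysosomal membrane protein (chr13:113297195-113297232, plus strand), and GAA, acid glucosidase (chr17:80101489-80101571, plus strand), are shown with the element in capitals.
LAMP1: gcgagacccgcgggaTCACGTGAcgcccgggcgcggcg
GAA: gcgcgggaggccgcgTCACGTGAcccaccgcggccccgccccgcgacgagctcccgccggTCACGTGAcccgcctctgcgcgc
LAMP1 had 385, 352 and 330.5 CPM with DMSO and 481, 473 and 474 CPM with DDD86481 and rose by 0.42 ± 0.08 (adjusted p = 0.000643). GAA rose by 0.31 ± 0.09, a call that was lost without DMSO replicate 3 and without DDD86481 replicate 2.

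Genes of the contractile apparatus fell. Of 20 contractile and myofibroblast genes, 16 were lower (80%) and 0 higher, with a median log2 fold change of -0.73, and 19 were lower without DMSO replicate 3. Their summed level was 28185, 28248 and 29353 CPM with DMSO and 17591, 18086 and 19111 CPM with DDD86481. ACTA2, smooth muscle actin and the usual marker of myofibroblasts, had 401, 411 and 449 CPM with DMSO and 75, 82.6 and 97.3 CPM with DDD86481. It fell by 2.30 ± 0.12 on the log2 scale (adjusted p = 9.35e-11), and 36.2% of its exonic bases are shared with ACTA2-AS1 and FAS. ACTG2, another smooth muscle actin, had 344, 358 and 427 against 54.6, 50.6 and 67.7 CPM, a change of -2.70 ± 0.14 (adjusted p = 9.35e-11). TAGLN, or SM22, had 1179.5, 1296 and 1755 CPM with DMSO and 371, 295 and 444 CPM with DDD86481, a change of -1.93 ± 0.16, with 47.8% of its exonic bases shared. In all 3 genes the highest treated library was replicate 3, far below every DMSO library. CNN1, calponin, changed by -2.13 ± 0.16, MYL9, a myosin light chain, by -1.20 ± 0.10, and the tropomyosins TPM1, TPM2 and TPM4 by -1.32 ± 0.12, -1.43 ± 0.18 and -0.57 ± 0.08. The cytoskeletal actin ACTB was the most abundant of them and fell from 4569, 4894 and 5282 to 2508, 2629 and 2853 CPM, or by 0.88 ± 0.09. MYH11, the smooth muscle myosin among the pericyte markers, changed by -2.62 ± 0.34 from 4.01 ± 0.753 CPM.

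CArG boxes, the elements of the serum response factor that works with actin-sensing cofactors, were in the windows of 5 of 12 lower contractile genes (41.7%: ACTG1, ACTG2, CNN2, SMTN and TPM4), against 1.6% of all genes. Such boxes were in 7 of all 16 tested contractile genes with a window, called or not (43.8%). They are shown in capitals for ACTG2 (chr2:73892883-73892959, plus strand), the gene with the steepest fall of the group, and TPM4 (chr19:16067350-16067389, plus strand), with a smaller one.
ACTG2: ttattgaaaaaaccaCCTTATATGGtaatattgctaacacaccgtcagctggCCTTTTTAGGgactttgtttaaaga
TPM4: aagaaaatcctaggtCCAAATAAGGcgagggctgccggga

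Targets of YAP and TAZ, the coactivators that respond to tension, were lower in 10 of 23 cases and higher in 1 (median -0.26). CCN2, a secreted matricellular protein, had 1114, 1207 and 1495 CPM with DMSO and 932, 709 and 744 CPM with DDD86481 and fell by 0.68 ± 0.20, with 11.9% of its exonic bases shared. This call was lost without DDD86481 replicate 2 or 3. ANKRD1 fell from 0.766, 1.33 and 2.09 to 0.365, 0.336 and 0.374 CPM.

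AP-1 and immediate early genes were higher in 11 of 25 cases and lower in 3 (median 0.41), and in 15 and 3 without DMSO replicate 3. FOS had 12.4, 12.8 and 9.85 CPM with DMSO and 133, 70.5 and 23.7 CPM with DDD86481, and rose by 2.69 ± 0.44 (adjusted p = 0.000102). EGR1, a zinc finger factor induced by growth signals, had 219, 219 and 153 against 849.9, 609 and 399 CPM and rose by 1.65 ± 0.23 (adjusted p = 1.77e-05). In both, DDD86481 replicate 1 was the highest and replicate 3 the lowest treated library, and neither had overlapping groups. JUNB, with 14.2% of its exonic bases shared, and NR4A1, with 10.3%, rose by 1.03 ± 0.17 and 1.39 ± 0.25. JUN was not called at 0.27 ± 0.11, and FOSL1, or FRA1, fell from 36.1, 36.4 and 36.1 to 15.7, 16.8 and 23.7 CPM.

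**Figure D2:**
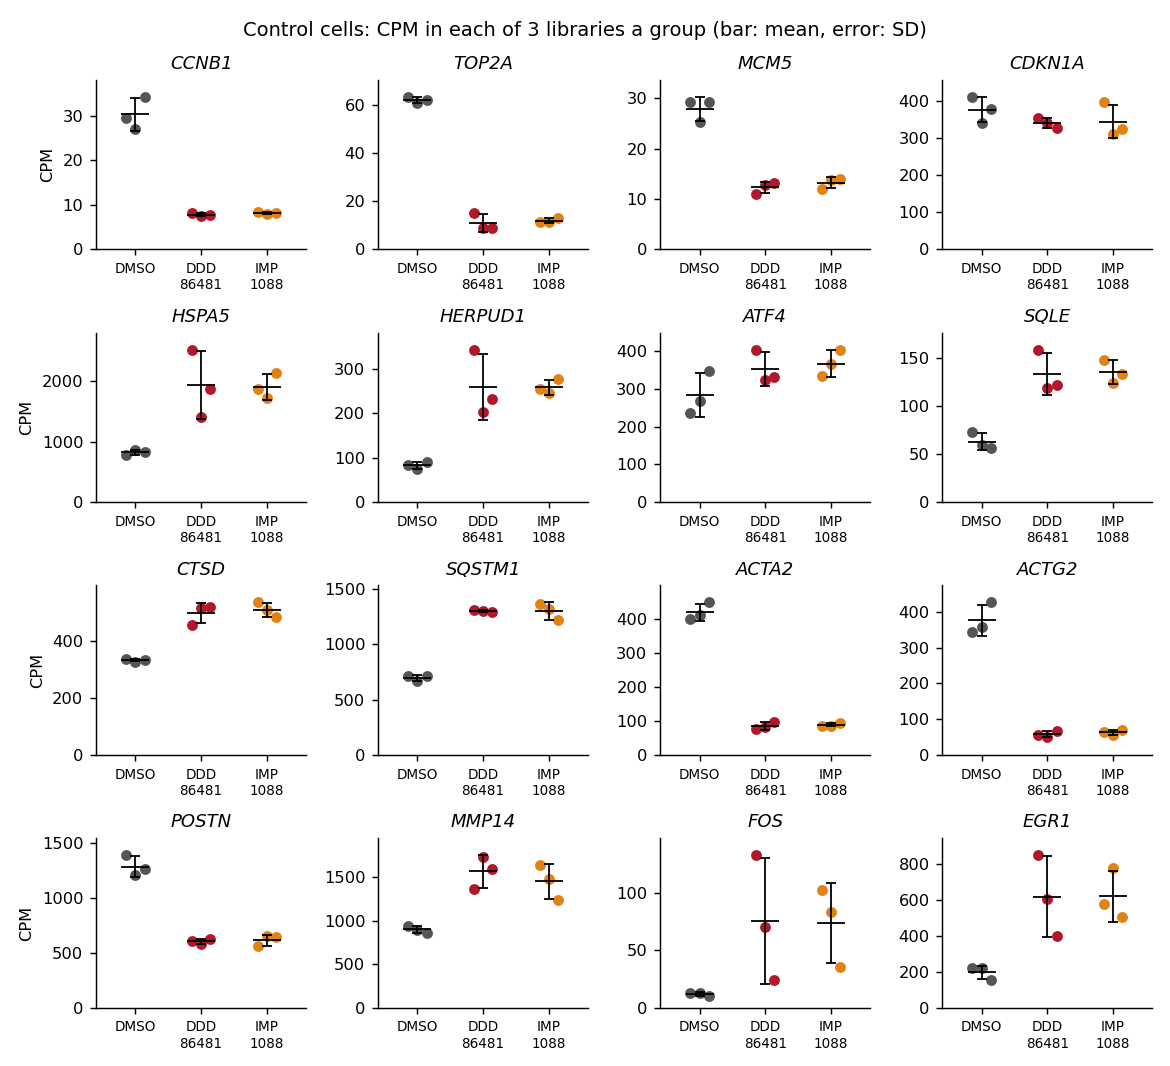
CPM of 16 genes in each of the 3 control libraries with DMSO, DDD86481 and IMP1088, each panel on its own linear axis from 0, with a bar at the mean and error bars of 1 SD. CCNB1, TOP2A, MCM5, ACTA2, ACTG2 and POSTN are lower, and HSPA5, HERPUD1, SQLE, CTSD, SQSTM1, MMP14, FOS and EGR1 higher, in every DDD86481 library than in every DMSO library, while CDKN1A and ATF4 overlap.

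Matrix genes had no common direction. Collagens were higher in 9 of 26 cases and lower in 2, or in 6 and 4 with the length correction, with a median of 0.19 that was 0.04 without DMSO replicate 3 and 0.02 with the length correction. Their summed level overlapped, at 42544, 38137 and 26692 CPM with DMSO and 49638, 40078 and 42203 CPM with DDD86481. COL1A1 had 8993, 8259 and 5549 against 10652, 7757 and 8958 CPM and was not called (log2 difference 0.26 ± 0.18, adjusted p = 0.256). COL1A2 and COL3A1 rose by 0.52 ± 0.14 and 0.61 ± 0.15, and DMSO replicate 3 was the lowest library for all 3 genes. Among 22 genes of collagen processing, 4 were higher and 8 lower, and LOXL2, which cross-links collagen, fell by 0.82 ± 0.13. Among 26 elastic fibre and glycoprotein genes 4 were higher and 5 lower, or 4 and 8 with the length correction. POSTN, periostin, had 1387, 1204 and 1258 CPM with DMSO and 610.1, 581 and 622 CPM with DDD86481, and fell by 1.09 ± 0.12 (adjusted p = 1.39e-06). DCN, the proteoglycan decorin, fell by 0.69 ± 0.09 from 3042 ± 226 CPM.

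Matrix proteases and their inhibitors were split, with 8 of 30 higher and 8 lower, or 4 and 11 without DMSO replicate 3 and 5 and 12 with the length correction. MMP14, the membrane-bound collagenase, had 943, 894 and 859 CPM with DMSO and 1364, 1732 and 1598 CPM with DDD86481, and rose by 0.80 ± 0.11 (adjusted p = 1.47e-05). MMP2, the gelatinase it activates, rose from 2089, 1843 and 1433 to 2551, 2722 and 2662 CPM. MMP1, the interstitial collagenase, and TIMP1, an inhibitor of these enzymes, fell by 0.94 ± 0.12 and 0.81 ± 0.12. Neither MMP14 nor MMP1 had overlapping groups. PLAUR, the urokinase receptor, fell by 0.99 ± 0.10.

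Secreted inflammatory factors changed in both directions. Of 41 genes of the senescence-associated secretory phenotype (SASP), 11 were higher (26.8%) and 7 lower (17.1%), beside 17.8% and 18.7% of all genes, with a median of 0.16. Without DMSO replicate 3, 15 were higher and 6 lower, and with the length correction 15 and 7. IL6, the cytokine, had 12.3, 22.6 and 35.1 CPM with DMSO and 10.9, 7.9 and 11.9 CPM with DDD86481 and fell by 1.18 ± 0.30 (adjusted p = 0.00462), although DMSO replicate 1 was close to the treated values. CXCL8 had 13.1, 21.5 and 36.7 against 48.2, 22.1 and 32.4 CPM and was not called, with overlapping groups, and CXCL1 was not called either, at 0.40 ± 0.28. CCL2, a chemokine for monocytes, fell by 1.11 ± 0.36, a call that was lost without DMSO replicate 3, without DDD86481 replicate 2 or 3 and with the length correction. HBEGF, a ligand of the EGF receptor, had 7.09, 14.4 and 15.2 CPM with DMSO and 2.87, 2.8 and 2.8 CPM with DDD86481, and fell by 2.11 ± 0.28 (adjusted p = 1.04e-05), with treated values almost equal. GDF15, a stress cytokine, had 41.3, 48.5 and 52 against 153, 166 and 141 CPM and rose by 1.70 ± 0.15 (adjusted p = 5.98e-08). CXCL2, CXCL3 and CXCL5, neutrophil chemokines at low levels here, rose by 1.65 ± 0.24, 1.53 ± 0.28 and 1.04 ± 0.24, LIF rose by 0.66 ± 0.16, and INHBA, the subunit of activin A, fell by 0.68 ± 0.12. NF-κB factors and inhibitors were higher in 8 of 20 cases and lower in 2: TNFAIP3, an inhibitor, rose by 0.99 ± 0.17 and BIRC3 fell by 1.35 ± 0.25. Interferon-stimulated genes were higher in 2 of 41 cases and lower in 8, or in 4 and 8 with the length correction, with GBP1 falling from 69.5 ± 17 to 27.8 ± 6.43 CPM and STAT2 rising by 0.80 ± 0.11.

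Genes of cell death did not move as a block. In the BCL2 family, 3 of 14 genes were higher and 6 lower. BCL2, the survival protein (chr18:63123346-63320090), had 3.75, 3.34 and 2.89 CPM with DMSO and 8.61, 9.52 and 11.2 CPM with DDD86481, and rose by 1.55 ± 0.20 (adjusted p = 6.26e-06), with every treated library more than double every DMSO library. BCL2L11, or BIM, a killer protein with 10.8% of its exonic bases shared, rose by 0.94 ± 0.21, BAX, another, fell by 0.52 ± 0.13, a call that was lost with the length correction, and MCL1 was not called at 0.12 ± 0.10.

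Energy metabolism showed falls in glycolysis. Of 29 genes of glycolysis and hypoxia, 12 were lower and 7 higher (median -0.23). LDHA, lactate dehydrogenase, had 434, 449 and 523 CPM with DMSO and 206, 177 and 193 CPM with DDD86481, and fell by 1.29 ± 0.10 (adjusted p = 1.59e-08). PKM, pyruvate kinase, had 1765, 1631 and 1629.7 against 932, 818 and 942 CPM and changed by -0.90 ± 0.09. GAPDH, which is often used as a reference, fell by 0.54 ± 0.10 and TPI1 by 0.79 ± 0.12, whereas HK2, a hexokinase, rose by 1.10 ± 0.16.

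Short, abundant RNAs of respiration, translation and protein breakdown were lower, but the counts depended on DMSO replicate 3. For mitochondrial complex I, 28 of 48 genes were lower and 3 higher (median -0.49), but 19 and 2 without DMSO replicate 3 (median -0.23) and 14 and 3 with the length correction (median -0.15). The summed level was 2267, 2632 and 3728 CPM with DMSO and 2089, 2202 and 2190 CPM with DDD86481. For cytosolic ribosomal proteins, 19 of 77 genes were lower and 0 higher (median -0.33), but 1 was lower without DMSO replicate 3, 67 without DMSO replicate 1, and 6 were lower and 5 higher with the length correction. Their sums overlapped, at 44617, 52558 and 77924 CPM with DMSO and 46103, 48919 and 46375 CPM with DDD86481. Ribosomal protein genes also have many pseudogenes that can take their reads. For the proteasome, 23 of 31 genes were lower and 1 higher, against 11 and 1 without DMSO replicate 3 and 14 and 1 with the length correction, and the sums were 3801, 4132 and 5353 against 3536, 3471 and 3525 CPM. In a fit of the 6 libraries alone, 12 complex I, 1 ribosomal and 4 proteasome genes were called lower, beside 1571 of 13558 genes tested. Median transcript lengths were 804 bases for the complex I list, 869 for the ribosomal list and 1540 for the proteasome list, beside 3072 for the mitosis list.

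To examine whether control cells responded like senescent cells, the effect of DDD86481 in senescent cells was compared with that in control cells by an interaction term. The 2 effects share no library. In senescent cells 6189 genes (43.2%) were called, 2877 higher (20.1%) and 3312 lower (23.1%), and the interaction was called for 4351 genes (30.3%), 2068 with a higher (14.4%) and 2283 with a lower (15.9%) log2 fold change in senescent cells. Mitosis genes often differed, with 33 of 43 members higher and 0 lower in the interaction. CCNB1 went from 11.3 ± 1.27 to 8.97 ± 0.483 CPM in senescent cells, and the interaction was 1.63 ± 0.17 (adjusted p = 1.78e-06). Its level with DMSO was lower in senescent than in control cells. DNA replication had 24 of 39 members higher and 1 lower, and CDC6, which licenses origins, fell by 0.90 ± 0.17 in control cells and rose from 1.39 ± 0.353 to 5.84 ± 0.962 CPM in senescent cells. Ribosomal (34 of 77), complex I (23 of 48) and proteasome (16 of 31) genes were also higher in the interaction with 0 lower, but without control DMSO replicate 3 the counts were 19, 13 and 6, and with the length correction 16, 12 and 7.

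Collagens differed in the opposite direction, with 16 of 26 members lower and 1 higher in the interaction. COL3A1 rose in control cells and fell from 296 ± 47.9 to 93.2 ± 13.5 CPM in senescent cells, an interaction of -2.27 ± 0.22 (adjusted p = 5.91e-07). SASP genes were lower in 13 and higher in 4 of 41 cases, YAP targets lower in 12 and higher in 2 of 23, lysosomal genes lower in 12 and higher in 6 of 49 and sterol genes lower in 9 and higher in 2 of 30. COPI genes were higher in 8 and lower in 0 of 28, or in 6 and 2 with the length correction. ER chaperones and folding enzymes were higher in 6 and lower in 1 of 31, with 25 called higher in senescent cells and 18 in control cells. For ER-associated degradation the interaction was higher in 5 and lower in 4 of 28. For sensors and factors of the UPR it was higher in 4 and lower in 5 of 30. The counts for these ER and UPR lists are from the main fit only. For BCL2, which rose in control cells, the senescent levels were 0.498 ± 0.108 and 0.423 ± 0.259 CPM, and the interaction was -1.82 ± 0.48 (adjusted p = 0.00833). ATF4 was not called in control cells and rose from 178 ± 31.3 to 439 ± 20.4 CPM in senescent cells, with an interaction of 0.99 ± 0.19 (adjusted p = 0.000927). Of 20 contractile genes, 4 were higher and 6 lower in the interaction. For Golgi genes the counts were 2 and 3 of 20, and for COPII genes 2 and 3 of 21, or 3 and 1 with the length correction.

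**Figure D3:**
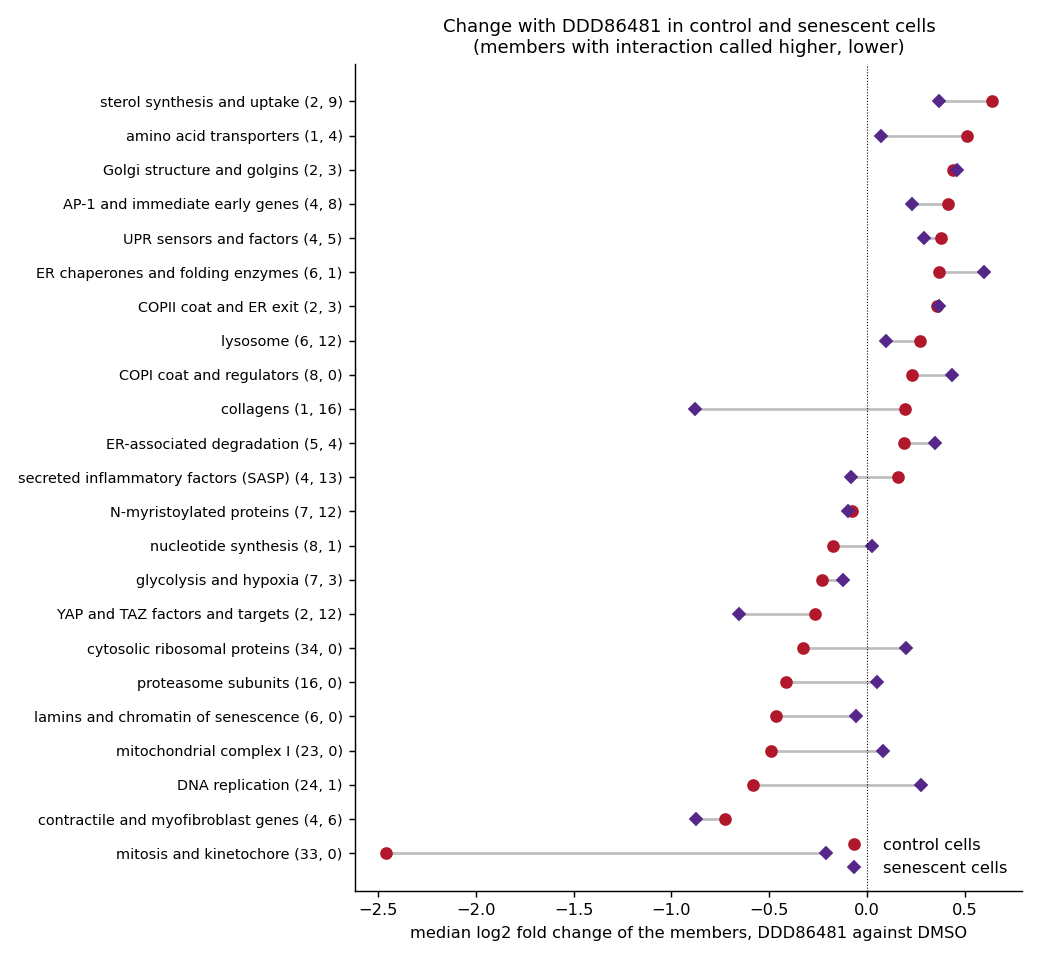
Median log2 fold change with DDD86481 against DMSO over the tested members of 23 gene lists in control cells (circles) and in senescent cells (diamonds), with the numbers of members whose interaction was called higher and lower in brackets. The mitosis medians are -2.46 and -0.21 and the collagen medians 0.19 and -0.88, whereas the Golgi and COPII medians lie close together.

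IMP1088 was given to control cells at 300 nM and DDD86481 at 1.5 µM for the same 3 days, so the doses differ and the values are set side by side. Both comparisons use the same DMSO libraries. With IMP1088, 4829 genes (33.7%) were called against DMSO, 2333 higher (16.3%) and 2496 lower (17.4%). Between the 2 inhibitors 0 of 14341 genes were called by edgeR, with 141 at an unadjusted p under 0.05, and DESeq2 and limma voom also called 0, with 118 and 612 at an unadjusted p under 0.05. The mitosis list had 42 of 43 members lower with either inhibitor, with medians of -2.46 and -2.39 for DDD86481 and IMP1088. For CCNB1 the mean with IMP1088 was 8.14 ± 0.185 CPM beside 7.79 ± 0.398 CPM with DDD86481, and the log2 difference of DDD86481 from IMP1088 was -0.06 ± 0.13. For HSPA5 the means were 1908 ± 213 and 1932 ± 564 CPM, with a difference of 0.02 ± 0.14. For ACTA2 they were 88.9 ± 5.34 and 85 ± 11.4 CPM (-0.06 ± 0.11), for SQLE 135 ± 12.1 and 133 ± 22.1 CPM (-0.02 ± 0.11), and for FOS 73.7 ± 34.5 and 75.7 ± 54.7 CPM (0.04 ± 0.40). These differences were within their standard errors or close to them, which does not show that the inhibitors act alike at matched doses.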

How the data were processed

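The series holds 18 poly(A) RNA libraries of IMR90 ER:RAS cells, 3 for each of 6 groups in the labels. Raw counts of reads by gene symbol were deposited by the authors in a single table of 28266 rows, of which 6836 held no count. Per the study's methods, directional single-end libraries were aligned with TopHat to hg19 with Ensembl annotation, whereas the submitters' processing notes name DRAGEN, STAR 2.7.8a, DESeq2 1.32.0 and hg38 without their roles. The strand setting of the counting was not given in the sources used here, so reads of overlapping and antisense genes cannot be told apart. Overlaps of at least 10% of exonic bases are given beside most named genes. Those not given there are TCF21 (23.5%), CDKN2C (20.4%), NUPR1 (16.5%), INHBE (16.4%), FOXM1 (15.9%), THY1 (12.5%), NDUFS1 (11.6%), RPS6 (10.5%) and CCND1 (10.4%). No overlap was computed for genes named after their values were seen, such as ARF4, MKI67 and PKM, or for C16orf71. The table's columns use the name PCLX001 for DDD86481, which the labels also hold.

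The filter filterByExpr kept 14341 genes with 99.96% of the counts. After TMM scaling, counts were fitted in edgeR 4.0.16 (quasi-likelihood test, R 4.3.3) in 1 fit of the 18 libraries over 6 groups, with 12 residual degrees of freedom and Benjamini-Hochberg adjustment over all genes tested (threshold 0.05). Standard errors are the size of the log2 fold change over the root of F, and a prior count of 2 was used for log2 CPM. The contrasts were DDD86481 and IMP1088 against DMSO in control cells, DDD86481 against DMSO in senescent cells, the difference of the DDD86481 effects between cell states, and DDD86481 against IMP1088. On counts simulated for DDD86481 against DMSO in control cells (14251 genes), the test called 92 of 100 genes changed 2-fold, 59 of 100 changed 1.5-fold and 12 of 14051 unchanged genes. The simulated counts had no trend with transcript length and the same relative spread in every group. The DMSO libraries differ in both respects, so these rates need not hold for the data. Library totals ran from 16143716 to 23189950 counts, and the 10 most abundant genes held 5.26 to 6.86% of the counts of the 6 libraries. Floors cover counting error only, since reads had no molecular identifiers. Differences between libraries of 1 group exceeded sampling noise (chi-square per gene of at least 6.49 in the 6 libraries), so none was taken for a duplicate.

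The members and gene lists were chosen with earlier results of these data known, and some genes and lists are not reported here. Named genes were the 12 largest rises and falls (called, at least 3 CPM in the higher group, no overlap, called in each of 6 fits with 1 library left out), leading members of each list, the called member of each list with the largest rise and fall, and the 5 largest interactions each way, of which those with a group at or under the floor are not given. Other genes were named after their values were seen, among them ARF4, ACSL1, METAP1, METAP2, GNAI2, PRC1, MKI67, CCNB2, CDC45, MCM3, MCM6, LMNA, HMGA1, SEC16A, SREBF2, NPC1, ELOVL5, FADS2, NEU1, TPP1, GAA, ACTB, the tropomyosins, PLAUR, CXCL2, CXCL3, CXCL5, PKM, GAPDH and TPI1, and so were the genes listed as holding a promoter motif. DDD86481 and IMP1088 were also to be compared by the 3 largest differences each way, but no gene was called.

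Alternatives were upper quartile and RLE scaling, no filter and a stricter filter on counts, DESeq2 1.42.0, limma 3.58.1 (voom with sample quality weights), fits of fewer libraries, a 2-fold threshold, each library left out and replicate number as a block. A correction for each library's trend on transcript length was chosen after seeing the data. It used GENCODE lengths on GRCh37 for 13752 genes (95.9%). Deviations of same-numbered control DMSO and DDD86481 libraries correlated with r of 0.160, 0.093 and 0.019, so the numbers were not taken to pair them. Those of control DDD86481 and IMP1088 libraries correlated with r of 0.101, 0.270 and 0.129 and were taken as paired, from the correlations alone. The main fit did not use this pairing, and the replicate block was shared by all 18 libraries. No test paired the libraries of the 2 inhibitors only. Exon overlaps came from GENCODE on GRCh37. Gene positions and promoter sequences came from RefSeq on GRCh38.p14, with a window for 11104 of the genes tested, searched on both strands.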

Additional observations from a re-analysis of the deposited data

Results flagged for a closer look

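The effect of DDD86481 differed between senescent and control cells, by the interaction term of edgeR's quasi-likelihood test, in 4351 genes. For genes of division the fall seen in control cells was smaller or turned into a rise. The interaction, as the senescent minus the control log2 fold change, was 4.59 ± 0.31 for AURKB (senescent DMSO 1.19 ± 0.0991 CPM, DDD86481 3.19 ± 0.507 CPM; adjusted p = 8.31e-09), 1.63 ± 0.17 for CCNB1, 4.79 ± 0.41 for TK1 (0.332 ± 0.131 to 1.57 ± 0.281 CPM), 2.97 ± 0.28 for CDC6 and 2.27 ± 0.40 for LMNB1 (2.08 ± 1.05 to 4.13 ± 1.85 CPM). CDKN2C, a CDK inhibitor, fell in control cells and rose in senescent cells from 0.775 ± 0.053 to 6.36 ± 1.38 CPM, an interaction of 3.82 ± 0.30 (adjusted p = 4.32e-08). SERPINB7, which fell in control cells, was at 69.6 ± 4.82 and 74 ± 4.97 CPM in senescent cells, an interaction of 3.11 ± 0.24. ANKRD1 had 0.652 ± 0.196 and 7.6 ± 1.04 CPM in senescent cells, an interaction of 5.43 ± 0.63 (adjusted p = 5.04e-06).

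Several secreted and matrix genes differed in the other direction. CXCL10, a chemokine induced by interferon, was at 2.1 ± 0.511 and 1.63 ± 0.672 CPM in control cells and at 29.6 ± 4.56 and 0.89 ± 0.091 CPM in senescent cells, an interaction of -4.70 ± 0.45 (adjusted p = 4.67e-07). MXRA5, a matrix protein, was at 18.5 ± 11.3 and 30.5 ± 2.48 CPM in control cells and at 60.1 ± 10.3 and 6.06 ± 1.76 CPM in senescent cells, an interaction of -4.03 ± 0.45. The interaction was -1.77 ± 0.25 for COL1A1, -2.27 ± 0.22 for COL3A1 and -0.80 ± 0.15 for MMP14. By contrast, for IL6, which fell in control cells and was not called in senescent cells (168 ± 23.8 and 241 ± 45.6 CPM), it was 1.69 ± 0.40 (adjusted p = 0.00388).

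Signalling, stress and survival genes with called interactions were NR4A3 at -3.14 ± 0.32, EGR1 at -1.77 ± 0.32, TRIB3 at -1.41 ± 0.25, ERN1 at -1.05 ± 0.23, ATF4 at 0.99 ± 0.19 and BCL2 at -1.82 ± 0.48. These do not stand for the stress genes as a group: among 31 ER chaperones and folding enzymes the interaction was higher for 6 and lower for 1. EGR1 and ERN1 were called in control cells and not in senescent cells, at 167 ± 41.1 and 154 ± 12.7 CPM and at 20.3 ± 2.63 and 23 ± 1.39 CPM.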

How the results depend on the processing

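For DDD86481 against DMSO in control cells, 5242 genes were called, against 8068 with limma voom and sample quality weights, 2842 in a fit of the 6 libraries alone and 242 with a 2-fold threshold. In the fit of the 6 libraries alone, 1271 of 13558 genes tested were called higher and 1571 lower. In that fit 15 of 49 lysosomal, 7 of 28 COPI and 5 of 15 amino acid transporter genes were called higher. So were 10 of 30 sensors and factors of the UPR and 19 of 30 sterol genes, and 42 of 43 mitosis genes were called lower. A fit of the 9 control libraries gave 4192. The other scalings and filters, DESeq2, the replicate block and the length correction gave from 5192 to 5420, and leaving out 1 library gave from 3773 to 6317, with 3773 without DDD86481 replicate 1 and 4120 without DMSO replicate 3. With upper quartile scaling the median over all genes moved by -0.06, with 2088 higher and 3258 lower genes, so 39.1% of calls were higher against 48.7%. The interaction ranged from 3273 to 6024 calls over the alternatives and from 3419 to 5796 with 1 library left out, and 53.8% of its calls were higher with upper quartile scaling against 47.5%. DDD86481 against IMP1088 gave 0 calls in every alternative and from 0 to 0 with 1 library left out. With the transcript length correction, 5192 genes were called, 2460 higher and 2732 lower, and 78.1% of the original calls were kept.

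With replicate number as a block, 5412 genes were called for DDD86481 against DMSO, 4555 for the interaction and 0 between the inhibitors, at 160 unadjusted, and among named genes 1 call was lost, that of RPS6.

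Of 249 genes followed here, 220 were called, and 181 of them kept the call in every setting but the 2-fold threshold. Of the genes followed, those lost without DMSO replicate 3 were ALDOA, CCL2, CDKN2D, COL5A1, COL6A3, EGFR, GAA, GLB1, LMAN2, METAP2, NDUFS1, PLAT and RPS6. The fit of the 6 libraries alone lost 32 of their calls. These included ALDOA, ARF5, ARL1, BAX, CDKN2D, COL1A2, COL5A1, COL6A3, COPB2, EGFR, FTH1, FTL, GAA, GBF1, GLB1 and HSP90B1. The others were ITGA5, KDELR2, LMAN2, MAP1LC3B, MCM3, METAP2, NDUFS1, PHGDH, PLAT, PSMC4, RPS6, SLC1A5, SLC38A1, SLC38A2, SLC7A1 and TFEB. The direction turned for POLE (0.14 without DMSO replicate 1, in a range from -0.35 to 0.14 with 1 library left out), PDIA6 (0.0023 without DDD86481 replicate 2, range -0.18 to 0.0023), CHAC1 (-0.15 without DMSO replicate 2 and -0.33 without DDD86481 replicate 1, range -0.33 to 0.40), PSAT1 (0.015 with the length correction, 0.044 without DMSO replicate 2, 0.15 and 0.031 without DDD86481 replicates 2 and 3, range -0.41 to 0.15) and NDUFS1 (-0.064 with the length correction), of which only NDUFS1 was called. The cause was not tested. Genes near the floor of 3 counts are limited by depth.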

Other observations

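Growth factor and adhesion genes changed in both directions, beside 17.8% higher and 18.7% lower over all genes. In the insulin-like growth factor system, 4 of 13 genes were higher (30.8%) and 4 lower (30.8%). IGFBP3, a binding protein of these factors, had 65.4, 55.7 and 56.3 CPM with DMSO and 28.9, 20.1 and 22 CPM with DDD86481, and fell by 1.32 ± 0.13 (adjusted p = 1.82e-07). IGF2R, which carries lysosomal enzymes and clears IGF2, had 278, 212 and 103 against 532, 491 and 514 CPM and rose by 1.37 ± 0.22, with DMSO replicate 3 the lowest library. IGF1R rose by 0.73 ± 0.15, and IGFBP7 fell by 1.21 ± 0.13. Integrins were higher in 2 of 17 cases and lower in 4, or in 1 and 8 both without DMSO replicate 3 and with the length correction. ITGA6, a laminin receptor subunit, had 76.9, 67.3 and 45.7 CPM with DMSO and 18.9, 19.7 and 15.5 CPM with DDD86481, and fell by 1.82 ± 0.16 (adjusted p = 5.28e-08). ITGA5, of the fibronectin receptor, fell by 0.44 ± 0.11. Among 20 SRC family and receptor kinases 7 were higher and 4 lower, or 4 and 5 without DMSO replicate 3. MET, the receptor of hepatocyte growth factor, fell by 0.79 ± 0.16, and EGFR rose by 0.67 ± 0.22, a call that was lost without DMSO replicate 3 and without DDD86481 replicate 1.

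TGF-beta genes were higher in 3 of 25 cases and lower in 4, or in 2 and 9 with the length correction, and TGFB2 rose by 0.55 ± 0.17, with 34.2% of its exonic bases shared and a call that was lost without DDD86481 replicate 1. ERK feedback genes were higher in 2 of 19 cases and lower in 5, or in 4 and 4 without DMSO replicate 3 and 4 and 5 with the length correction, and SPRED2, an inhibitor of the pathway, rose by 0.65 ± 0.14. In the NRF2 and antioxidant group 4 of 26 genes were higher and 6 lower. NQO1, a quinone reductase with 19.4% of its exonic bases shared, had 122, 107 and 129 CPM with DMSO and 66.7, 62.7 and 65.1 CPM with DDD86481, and fell by 0.88 ± 0.10 (adjusted p = 3.33e-06). The ferritin chains FTL and FTH1 rose by 0.46 ± 0.11 and 0.46 ± 0.12, with overlapping groups for FTH1. HMOX1, haem oxygenase, rose from 21.3, 25.7 and 23.3 to 35.4, 68.3 and 38.7 CPM, with replicate 2 the highest treated library and no call without it. Cytosolic tRNA synthetases were higher in 6 of 20 cases and lower in 2. Of 38 replication-dependent histone genes, most of whose RNA lacks a poly(A) tail, 14 passed the filter on low counts, 2 were higher and 0 lower.

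Among markers of other cell types, KRT19 and KRT18, keratins that fibroblasts can express, fell by 2.34 ± 0.22 and 1.03 ± 0.15, and KRT19 had 29.3, 27 and 37.8 CPM with DMSO and 6.37, 5.88 and 6.31 CPM with DDD86481. VWF, an endothelial gene, had 1.65, 0.805 and 0.896 against 2.61, 3.31 and 3.69 CPM and rose by 1.50 ± 0.25.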
